A study of Mus musculus with 16 samples.

Results

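Notch receptors, their Jagged ligands and the Celsr cadherins are large membrane proteins through which neighbouring cells signal to each other. Their 9 mouse genes, Notch1, Notch2, Notch3, Notch4, Jag1, Jag2, Celsr1, Celsr2 and Celsr3, were followed in RNA that came down with Sox2, an HMG-box transcription factor of pluripotent cells, and in the input RNA of the same lysates. They were taken by gene symbol, through the GENCODE mouse annotation, from the 53379 genes of the count table, and each symbol matched 1 row. All 9 were among the 22936 genes tested, those with at least 3 unique molecular identifiers (UMIs) in 1 or more of the 16 libraries. A UMI tags an original RNA fragment, so that copies made by amplification are counted once.

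All libraries came from male mouse embryonic stem cells (mESC), and no genetic change is named in the labels. The cells grew on gelatin in serum medium with LIF at 1000 U/mL, the MEK inhibitor PD0325901 at 1 µM and the GSK3 inhibitor CHIR99021 at 3 µM. UV-RIP used ultraviolet light, which joins protein to RNA in direct contact, and fRIP used formaldehyde, which also joins neighbouring molecules. For each crosslinker there were 4 Sox2 immunoprecipitation (IP) libraries and 4 input libraries, numbered as replicates 3 to 6, and the 8 lysates came from 8 plates. IP and input of 1 number share a lysate. The p-values rest on the spread between plates of these cells, with the variance of a gene estimated in part from all genes. They therefore do not measure the spread of that gene alone, and their size depends on the test. Control pull-downs without the Sox2 antibody were not analysed here, and recovery through Sox2 and recovery by the beads cannot be told apart.

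Notch signalling starts when a ligand of the Delta or Jagged type on 1 cell binds a Notch receptor on the next. The receptor is then cut by ADAM proteases and gamma-secretase, and its intracellular part enters the nucleus and activates target genes with the DNA-binding protein Rbpj. The Celsr proteins are cadherins with several membrane passes, the vertebrate relatives of Flamingo, and belong to the core machinery of planar cell polarity, the alignment of cells within a sheet. In embryonic stem cells Notch signalling is known for its part in the choice of neural fate.

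The 9 genes lie on 6 chromosomes of GRCm38 (GENCODE vM21), and the UMIs were counted over whole gene bodies, introns included. Notch1 spans chr2:26457903-26516663 on the minus strand and Notch2 spans chr3:98013527-98150361 on the plus strand. Notch4 spans chr17:34564268-34588503 (plus strand), whereas the counted version of Notch3, also on chromosome 17, covers 46061 bases and differs from that of the annotation used here, so that its ends are not given. Jag1 spans chr2:137081456-137116644 and Jag2 spans chr12:112907819-112929776, both on the minus strand. Celsr1 spans chr15:85898929-86033777 and Celsr2 chr3:108390851-108415552, both on the minus strand. Celsr3 spans chr9:108826320-108852969 on the plus strand, matched by identifier and by its length of 26650 bases but not by version. The gene bodies range from 21958 bases in Jag2 to 136835 bases in Notch2, and exons make up between 7.88% of the body in Notch2 and 46.6% in Celsr2.

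Paralogues of this kind can share stretches of sequence, so the coding sequences were searched for stretches long enough to hold a read. The reads were paired, with 34 bases from each end. Over the 36 pairs of members, no stretch of 34 bases was shared, and the longest exact match was 32 bases, between Celsr1 and Celsr3. The longest match within each family is given in capitals with 40 bases on either side, 5′ to 3′ from the coding strand, because these are the places where reads of 2 members come closest to being alike. Notch1 is shown from coding base 635, Notch2 from 3542, Jag1 from 809, Jag2 from 842, Celsr1 from 3933 and Celsr3 from 4077, with the A of the start codon as base 1.
Notch1: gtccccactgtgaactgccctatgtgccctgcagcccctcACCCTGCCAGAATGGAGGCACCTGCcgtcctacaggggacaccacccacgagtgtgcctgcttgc
Notch2: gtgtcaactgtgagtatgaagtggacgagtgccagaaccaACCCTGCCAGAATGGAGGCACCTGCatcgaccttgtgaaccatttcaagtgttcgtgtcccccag
Jag1: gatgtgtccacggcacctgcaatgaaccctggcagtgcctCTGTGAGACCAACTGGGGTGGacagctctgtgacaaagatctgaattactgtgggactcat
Jag2: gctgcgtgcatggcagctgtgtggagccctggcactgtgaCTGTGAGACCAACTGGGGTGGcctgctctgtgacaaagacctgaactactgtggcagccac
Celsr1: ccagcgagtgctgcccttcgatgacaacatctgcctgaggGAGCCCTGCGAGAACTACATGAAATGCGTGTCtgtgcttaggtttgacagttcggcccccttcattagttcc
Celsr3: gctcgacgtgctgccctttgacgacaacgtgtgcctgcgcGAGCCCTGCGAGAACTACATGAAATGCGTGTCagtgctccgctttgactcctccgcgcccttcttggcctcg
The shared run of Notch1 and Notch2 is 25 bases long and that of Jag1 and Jag2 is 21 bases long. A full-length exonic read can therefore be assigned to 1 member by its sequence. Overlap with other genes is a separate matter. Gm17276, an antisense transcript, overlaps 21024 bases of Notch3 and had between 55 and 240 UMIs per library, and 0610009E02Rik overlaps 1488 bases of Notch1 on the opposite strand. The strand setting of the counting is not given in the sources used here. For which gene reads from these stretches were counted, if for any, is therefore not known. Gm17276 itself was higher in IP, with a log2 fold change of 0.53 in UV-RIP (edgeR adjusted p = 4.73e-08) and 1.23 in fRIP (edgeR adjusted p = 1.58e-08), and 0610009E02Rik had 0.25 in UV-RIP (edgeR adjusted p = 0.105) and 0.97 in fRIP (edgeR adjusted p = 0.000281). The part of these genes in the values of Notch3 and Notch1 was not tested. Exonic windows of 34 bases that other annotated genes also hold made up 9.34% of those of Notch1, 6.08% in Notch3, 4.20% in Notch2, 0.271% in Celsr3 and 0 in the other 5.

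The libraries held between 12456298 and 21211537 UMIs on genes, and a member had between 188 (Jag2) and 5147 (Celsr1) UMIs in any 1 library. The transcripts Gm26917 and Gm42418 together took 20.5 to 24.7% of the UMIs in UV-RIP IP, at least 13.7% in UV-RIP input and 6.33 to 14.4% in fRIP, which bears on any value scaled to the total. The input of fRIP replicate 4 stood apart. Over the 10208 genes that averaged at least 100 UMIs, called abundant from here on, the SD of its log2 difference from the mean of the other 3 inputs was 0.350, against 0.167 to 0.196 for those 3. In that library the members lay a median of 0.57 below the other inputs on the log2 scale, against 0.05 below for the 10208 genes, and 8 of 9 members had their lowest fRIP input value there. The main results in fRIP are therefore given with and without replicate 4. The IP of fRIP replicate 5 also differed from the other 3 IPs, its chi-square over abundant genes being 57.8 to 91.9 per degree of freedom against 7.36 to 8.59 among those 3, and Gm26917 and Gm42418 took 14.4% of its UMIs against 6.33 to 7.82%. Without replicate 5 the same number of members was called in each fRIP comparison as with it, and the values it moved across a threshold are named. Among 8 pluripotency markers none was at 0 in any group and their summed level was 1944 to 3993 UMIs per 1000000 of the library (CPM), whereas 16 markers of other cell types summed to 24.5 to 32.0 CPM.

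In UV-RIP all 9 genes were higher in Sox2 IP than in input. Jag2, Celsr1 and Celsr3 passed the call for enrichment, a fold above 1.5 with an adjusted p below 0.05 by edgeR's quasi-likelihood test (Benjamini-Hochberg), and none was depleted, beside 5.53% of all genes tested. These 3 of 9 stand beside a background of 0.680% of the 22936 genes tested, or 0.607% of the abundant ones. The members were chosen with earlier results of these data known, so their shares beside the background are a description and were not tested. By adjusted p alone all 9 rose, against 6.60% of all genes tested and 12.7% of the abundant ones. DESeq2 with total UMIs called the same 3, with larger adjusted p than edgeR: 1.03e-22 for Celsr3, 2.85e-28 for Celsr1 and 1.97e-10 for Jag2. The median log2 fold change of the 9 was 0.48, whereas that of all genes tested was -0.17. The scaling set the balance of calls over all genes, with 156 enriched and 1268 depleted by total UMIs against 505 and 425 with TMM scaling, under which Notch1, Notch4 and Celsr2 were called as well and the median of all genes lay 0.17 higher.

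Celsr3, the Celsr gene best known for axon guidance in the brain, had the largest enrichment of the 9 in UV-RIP. Its IP libraries held 55.3, 51.3, 57.6 and 57.7 CPM in replicates 3, 4, 5 and 6, and its input libraries 30.4, 30.3, 32.4 and 34.1 CPM. Every IP value lay well above every input value, with means of 55.5 ± 2.98 and 31.8 ± 1.78 CPM (SD, n = 4 each). The log2 fold change was 0.80 (standard error 0.05, edgeR adjusted p = 1.51e-48), a 1.74-fold enrichment, which was higher than that of 99.9% of the abundant genes. Celsr1, which acts in planar polarity of the skin and neural tube, had 173, 161, 176 and 184 CPM in IP and 108, 112, 119 and 111 CPM in input, so that the groups were again apart. Its log2 fold change was 0.63 (standard error 0.04, edgeR adjusted p = 6.83e-49), or 1.55-fold. Celsr2, the third paralogue, had a log2 fold change of 0.42 (standard error 0.06, edgeR adjusted p = 8.60e-11), under the fold of the call, with 29.0 to 34.7 CPM in IP and 21.8 to 28.5 CPM in input.

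Of the ligands, Jag2 was enriched and Jag1 was not called. Jag2 had 29.5, 24.9, 30.0 and 28.2 CPM in UV-RIP IP and 17.3, 16.7, 17.6 and 17.4 CPM in input. The lowest IP value was above the highest input value, and the inputs differed little among themselves. The log2 fold change was 0.71 (standard error 0.07, edgeR adjusted p = 7.00e-25), or 1.63-fold. Jag1 had between 55.3 and 61.0 CPM in IP and 46.4, 48.3, 48.1 and 57.5 CPM in input. Its groups overlapped, through the high input of replicate 6, and its log2 fold change was 0.23 (standard error 0.05, edgeR adjusted p = 2.56e-05).

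The 4 receptors rose by less than 1.5-fold in UV-RIP. Notch1, the receptor with the largest value, had 144, 140, 161 and 150 CPM in IP and 101, 101, 103 and 104 CPM in input, with a log2 fold change of 0.54 (standard error 0.04, edgeR adjusted p = 7.36e-35). Its 1.45-fold difference was just under the threshold. Notch4, known from the endothelium, followed with a log2 fold change of 0.48 (standard error 0.05), then Notch3, a receptor of vascular smooth muscle, with 0.36 (standard error 0.05). Notch2 had the smallest value of the 9 at 0.21 (standard error 0.04, edgeR adjusted p = 4.42e-06). Its IP libraries nevertheless lay between 111 and 114 CPM and its inputs between 92.7 and 99.9 CPM, with no overlap. Every IP library exceeded every input library for 8 of 9 members, the exception being Jag1, beside 4.93% of all genes tested and 8.95% of the abundant ones.

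**Figure D1:**
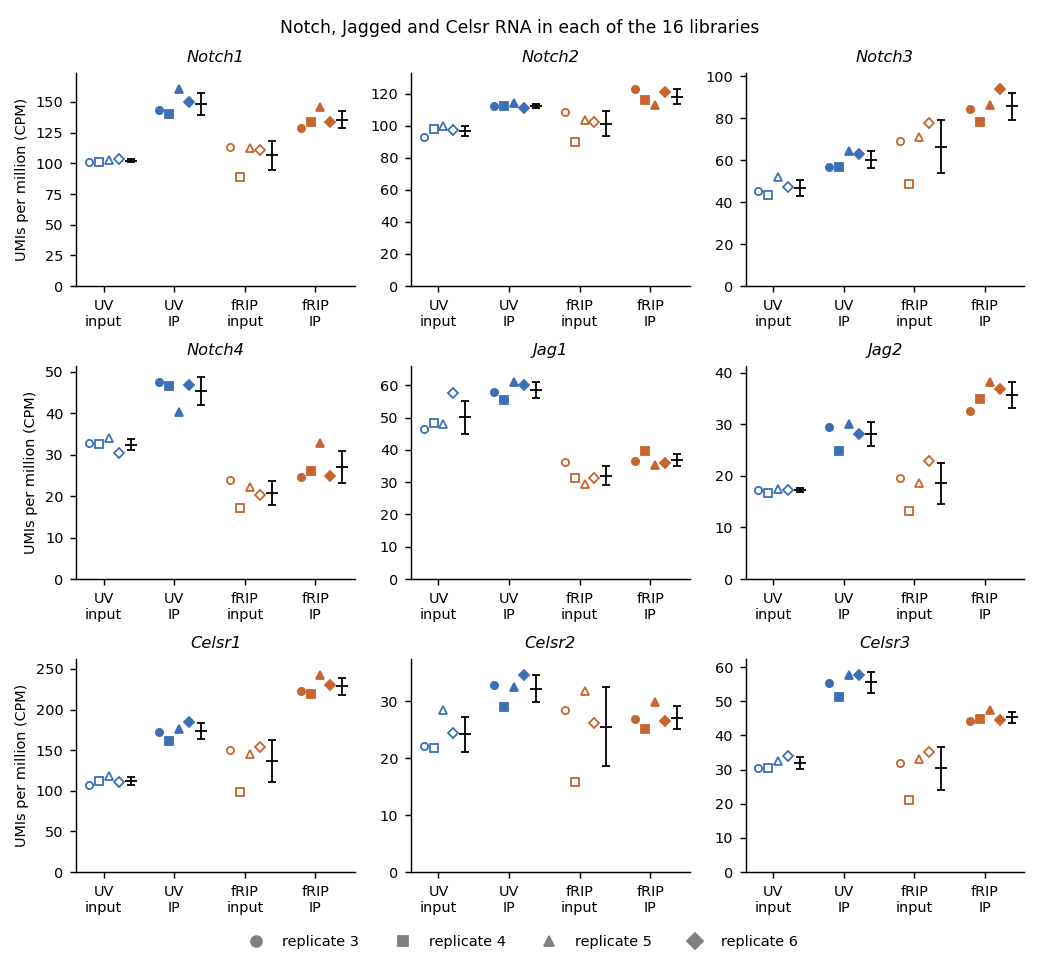
UMIs per 1000000 of the library (CPM, linear axes from 0) of each of the 9 genes in all 16 libraries, by crosslinker (blue UV-RIP, orange fRIP) and by input (open) or IP (filled), with marker shape for the replicate number and black bars for the mean ± SD of 4 libraries. The IP points of Jag2, Celsr1 and Celsr3 lie above all their input points for both crosslinkers, and the open orange square, input of fRIP replicate 4, is the lowest of its group for 8 of 9 genes.

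In fRIP the same 3 members, Jag2, Celsr1 and Celsr3, passed the call, and none was depleted, beside 10.7% of all genes tested. The background was far broader here, with 8.80% of all genes tested and 11.5% of the abundant ones called enriched. As in UV-RIP, the members' shares beside it are a description. By adjusted p alone 7 of 9 rose, all but Jag1 and Celsr2, beside 17.6% of all genes tested and 29.2% of the abundant ones. The median log2 fold change of the 9 was 0.38, against -0.03 for all genes tested. Without replicate 4 the same test called 2 of 9 enriched and none depleted, beside 7.80% and 9.41% of all genes tested, 7 of 9 rose by adjusted p alone beside 18.4%, and the median of the 9 was 0.28. With the trend on GC content removed their median was 0.22. IP exceeded input without overlap for 7 of 9 members, beside 15.3% of all genes tested and 23.9% of the abundant ones.

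Jag2 had the largest difference of the 9 in fRIP. It had 32.6, 35.0, 38.2 and 37.0 CPM in IP and 19.6, 13.2, 18.6 and 22.8 CPM in input, so that the groups were apart although the inputs spread widely. The log2 fold change was 0.96 (standard error 0.10, edgeR adjusted p = 7.96e-08), or 1.95-fold, and 0.82 without replicate 4. Jag1 had 36.5, 39.6, 35.3 and 36.0 CPM in IP and 36.3, 31.2, 29.3 and 31.4 CPM in input. The input of replicate 3 exceeded 2 of the IP values, and the log2 fold change of 0.20 did not pass the test (standard error 0.09, edgeR adjusted p = 0.0673; 0.15 with adjusted p = 0.0735 without replicate 4).

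Celsr1 reached higher levels in fRIP IP than in any other group, at 223, 219, 243 and 231 CPM beside 150, 98.6, 145 and 154 CPM in input. The log2 fold change was 0.76 (standard error 0.09, edgeR adjusted p = 1.86e-07) and 0.63 without replicate 4. Celsr3 had 44.2, 44.7, 47.5 and 44.6 CPM in IP and 31.8, 21.0, 33.2 and 35.2 CPM in input. Its IP values hardly varied, and the 1.51-fold difference (log2 fold change 0.60, standard error 0.10, edgeR adjusted p = 3.22e-05) rested on the low input of replicate 4 for its side of the fold threshold. Without that replicate the log2 fold change was 0.44 (adjusted p = 1.02e-09), and 2 of 9 members were called. Celsr2 had 26.9, 25.2, 30.0 and 26.6 CPM in IP and 28.4, 15.7, 31.8 and 26.2 CPM in input. The groups overlapped, IP was above input on 2 of 4 plates, and the log2 fold change of 0.12 (standard error 0.11, edgeR adjusted p = 0.430) became -0.05 without replicate 4.

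None of the 4 receptors was called in fRIP. The log2 fold changes were 0.38 for Notch3 and for Notch4 (standard errors 0.08 and 0.10), 0.35 for Notch1 (standard error 0.08) and 0.23 for Notch2 (standard error 0.08), with edgeR adjusted p between 0.000673 and 0.0202. Without replicate 4 they were 0.28, 0.31, 0.28 and 0.18 in that order, and all 4 still had an adjusted p below 0.05. Without replicate 5 Notch4 was at 0.31 with an adjusted p of 0.0593 by edgeR, and the other 3 stayed below 0.05. With the GC trend removed Notch4 was at 0.19 (edgeR adjusted p = 0.149) and Notch2 at 0.18 (edgeR adjusted p = 0.0627), and with the gene-length trend removed Notch1 was at 0.21 (edgeR adjusted p = 0.0411) and Notch2 at -0.09 (edgeR adjusted p = 0.448). No receptor reached 1.5-fold in any of these fits. On single plates the ratio in fRIP was highest on replicate 4 for 9 of 9 members, with a median over members of 0.68 on that plate and 0.18, 0.38 and 0.28 on replicates 3, 5 and 6. In UV-RIP the 4 plate medians lay between 0.34 and 0.53.

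**Figure D2:**
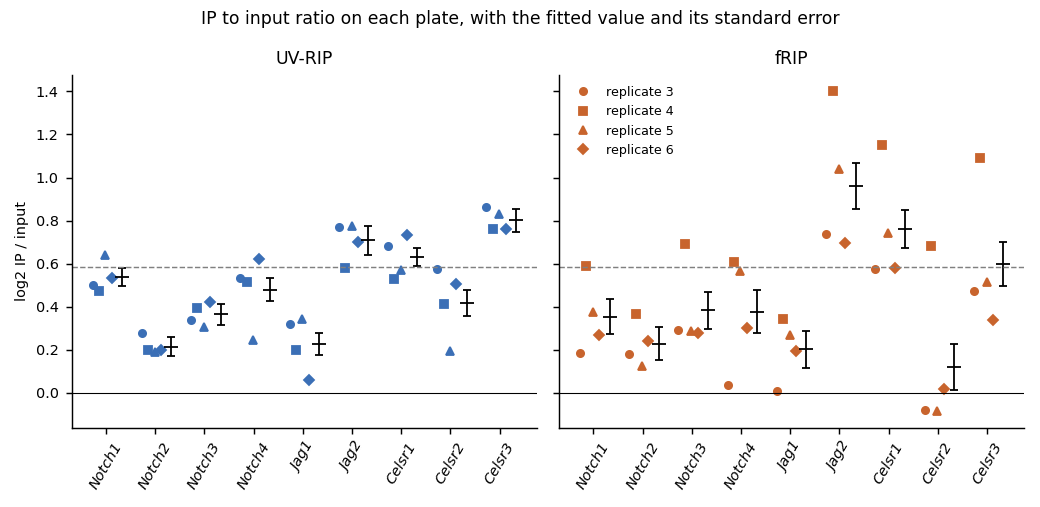
Log2 ratio of IP to input CPM on each plate for the 9 genes, in UV-RIP (left) and fRIP (right), with marker shape for the replicate number, black bars for the fitted log2 fold change ± its standard error, and the dashed line at 1.5-fold. All UV-RIP ratios are above 0, and in fRIP the squares of replicate 4 are the highest of the 4 plates for each gene.

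**Figure D3:**
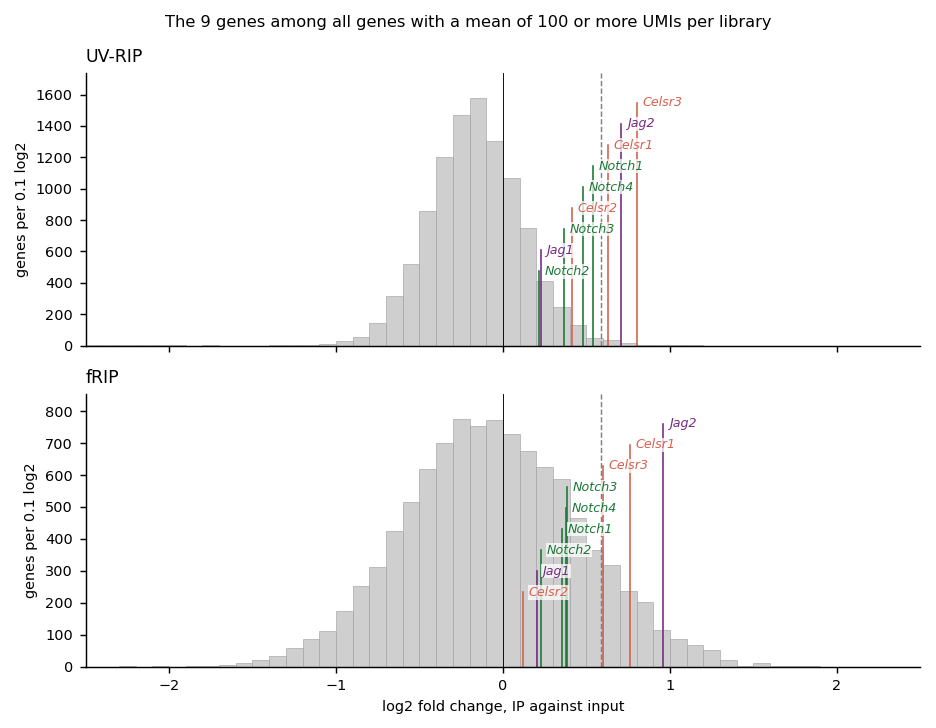
Number of genes (vertical axis) by log2 fold change of IP against input in bins of 0.1 (horizontal axis) for the 10208 abundant genes, with a coloured line at the value of each of the 9 genes (its height has no meaning) and the dashed line at 1.5-fold. In UV-RIP all 9 lie right of the peak, between 0.21 and 0.80, whereas in the wider fRIP distribution they lie between 0.12 and 0.96.

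The difference between the crosslinkers was tested for each gene as an interaction, fRIP enrichment minus UV-RIP enrichment on the log2 scale, in 1 fit over all 16 libraries. With total UMIs as library size, 0 of 9 members differed at an edgeR adjusted p below 0.05 (2 of 9, both lower in fRIP, at an unadjusted p below 0.05, beside 11.0% of all genes tested, and 0 of 9 by DESeq2 with total UMIs). Across all genes tested, 18.6% were higher in fRIP and 8.07% lower, or 4264 and 1852 genes, against 3062 and 2810 with TMM scaling. The largest differences were -0.30 for Celsr2 (standard error 0.14, adjusted p = 0.109), 0.25 for Jag2 (standard error 0.13, adjusted p = 0.175), -0.21 for Celsr3 (standard error 0.12, adjusted p = 0.236) and -0.18 for Notch1 (standard error 0.09, adjusted p = 0.142). The other 5 lay between -0.10 and 0.13. The median of all genes tested was 0.15, and the members' median was -0.03.

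This outcome depended on 1 plate and on the scaling. Without fRIP replicate 4, Notch1, Celsr2 and Celsr3 were less enriched in fRIP than in UV-RIP, by -0.26, -0.47 and -0.36 on the log2 scale (edgeR adjusted p = 0.000730, 8.98e-06 and 0.000236). In that fit 9.18% of all genes tested were lower in fRIP and 19.7% higher. With TMM scaling, which moved the median of all genes by -0.12, the same 3 were called at -0.30, -0.42 and -0.32. Jag2, Celsr1, Notch3, Notch4 and Jag1 were called under no alternative, while Notch2 was called at -0.39 with the trend on gene length removed.

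**Figure D4:**
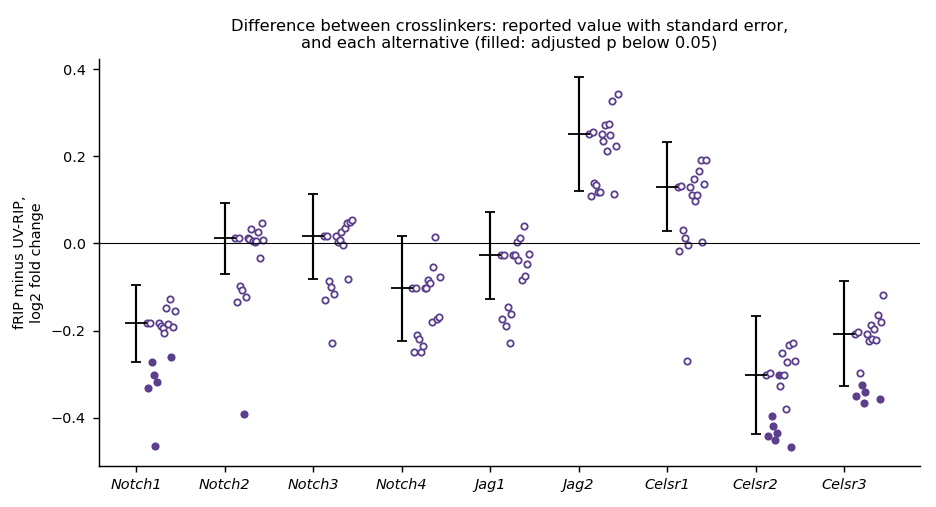
Difference in enrichment, fRIP minus UV-RIP, as log2 fold change for each of the 9 genes, with the black bar for the reported value ± its standard error and a circle for each of 17 alternative fits (filled at an adjusted p below 0.05). Filled circles appear for Notch1, Celsr2 and Celsr3 and once for Notch2, and they are all below 0.

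The inputs themselves differed between crosslinkers for some members. Notch4 and Jag1 were lower in fRIP input than in UV-RIP input, 2 of 9 beside 9.44% of all genes tested, and 0 of 9 were called higher, beside 10.6%. At an unadjusted p below 0.05 by edgeR, 2 of 9 were higher, beside 24.1%. Without fRIP replicate 4 that count was 5 of 9, for which the share of all genes is not given here. DESeq2 with total UMIs also called 2 lower, Notch4 and Jag1, and 0 higher. Notch4 had 32.8, 32.5, 33.9 and 30.5 CPM in UV-RIP input and 23.9, 17.2, 22.1 and 20.3 CPM in fRIP input, groups that did not overlap (log2 fold change -0.64, standard error 0.10, edgeR adjusted p = 0.000111). Jag1 was also apart, at 46.4 to 57.5 CPM in UV-RIP input and 29.3 to 36.3 CPM in fRIP input (log2 fold change -0.64, standard error 0.09, edgeR adjusted p = 4.53e-05). Without UV-RIP replicate 6, the highest input of Jag1, it was at -0.57, under the fold threshold. Notch3 had 43.2 to 52.0 CPM in UV-RIP input and 68.9, 48.4, 70.8 and 77.6 CPM in fRIP input. Its log2 fold change of 0.50 (standard error 0.12, edgeR adjusted p = 0.00272) was under the fold threshold, and became 0.63 without replicate 4, past it. Without that replicate Notch4 moved to -0.55, under the threshold, so that 1 member was called in each direction. The summed pluripotency markers were at 2104 to 2265 CPM in UV-RIP input and 3631 to 3993 CPM in fRIP input, and 6 of 8 were called higher. The 16 markers of other cell types summed to 24.5 to 27.4 CPM in UV-RIP input and 30.0 to 32.0 CPM in fRIP input, and of 13 tested 3 were called higher and 1 lower. Without fRIP replicate 4, and by DESeq2 with total UMIs, 2 were called higher and 0 lower. The part of either marker list in these differences was not tested. In bulk RNA, fewer cells that express a gene and less of its RNA per cell cannot be told apart. The crosslinkers were applied to different plates, and crosslinking, RNA recovery and plate cannot be told apart in this comparison.

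Levels were compared between genes per kb of gene body, as CPM/kb. In UV-RIP input, Notch1 was highest at 1.74 ± 0.0210 CPM/kb (SD, n = 4), followed by Jag1 (1.42 ± 0.143), Notch4 (1.34 ± 0.0585), Celsr3 (1.19 ± 0.0667), Notch3 (1.02 ± 0.0819), Celsr2 (0.979 ± 0.125), Celsr1 (0.833 ± 0.0342), Jag2 (0.784 ± 0.0178) and Notch2 (0.708 ± 0.0219). Neighbours whose libraries overlapped were Jag1 and Notch4, Notch4 and Celsr3, Notch3 and Celsr2, and Celsr1 and Jag2. In fRIP input Notch1 was again highest at 1.81 ± 0.201 CPM/kb and Notch2 lowest at 0.739 ± 0.0575 CPM/kb, and every pair of neighbours in the order overlapped. The order rested on the length used. Per kb of exons, Celsr1 was highest in both inputs (10.2 ± 0.419 CPM/kb in UV-RIP and 12.4 ± 2.35 in fRIP), Notch2 was second, and Celsr2 was lowest (2.10 ± 0.268 and 2.22 ± 0.602). The libraries of Celsr1 and Notch2 overlapped in fRIP input, and Celsr2 overlapped its neighbour in both inputs, Jag2 in UV-RIP and Celsr3 in fRIP. Counts of introns and exons are pooled in the deposited values, and the share from each was not measured here.

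Most of the 9 transcripts share a high content of G and C. The GC content of the longest annotated transcript ran from 48.8% in Jag1 to 61.9% in Jag2. Among abundant protein-coding genes, 7 of 9 members lay at the 88.3 percentile or higher, Notch2 at 72.5 and Jag1 at 47.2. Across the 10200 abundant genes with a known GC content, GC content and UV-RIP log2 fold change had a Spearman correlation of 0.56, and 0.31 in fRIP. Gene-body length had 0.21 in UV-RIP and 0.57 in fRIP over 10208 genes. These are correlations across genes that share their libraries, given as a description. With the GC trend over all genes removed, the same 3 members stayed called in UV-RIP, Celsr1 at a log2 fold change of 0.59, right at the threshold, while in fRIP Celsr3 had 0.48 and Jag2 and Celsr1 stayed called. With the trend on gene length removed, Celsr1, whose body is 134849 bases long, had 0.45 in fRIP and Notch2 -0.09, whereas Jag2 kept a value of 0.99 and Celsr3 0.60. In UV-RIP the same step called 5 of 9, Notch1 and Notch4 in addition.

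The other genes of the Notch pathway were taken from lists by role. Of 49 tested, 0 were enriched and 0 were depleted in UV-RIP, beside 0.680% and 5.53% of all genes tested, so that few calls were to be found in a list of this size. Their median log2 fold change of -0.13 was near that of all genes (-0.17). By adjusted p alone 7 rose and 16 fell, beside 6.60% and 29.0% of all genes tested, the latter near the share of the list. DESeq2 with total UMIs also called 0 of them. They comprised 5 other ligands, 6 glycosylation enzymes, 10 cleavage genes, 13 ubiquitination and trafficking genes, 9 nuclear genes and 6 target genes. The difference between the members and these lists was not tested.

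In fRIP 5 of the 49 were enriched and 4 depleted, shares near those of all genes tested (8.80% enriched and 10.7% depleted), so that the list as a whole did not stand out. Among the nuclear genes, Maml3, a Mastermind coactivator, was enriched with a log2 fold change of 0.98 (standard error 0.10, edgeR adjusted p = 5.32e-08), as was Spen, a corepressor (0.72), while the coactivator Maml2 was depleted (-0.65). Among the ubiquitination genes, Neurl1a and Mib2, ligases that act on Notch ligands, were enriched at 1.29 and 0.64. The depleted genes of the cleavage list were both gamma-secretase subunits, Ncstn (-0.63) and Psenen (-1.25), and among the target genes Nrarp, a feedback inhibitor, was depleted (-0.96). Without replicate 4, 3 were enriched and 3 depleted, with Spen (0.47), Mib2 (0.58) and Ncstn (-0.56) under the fold threshold. In UV-RIP none of these named genes passed the call. Their values there were 0.28 for Maml3, 0.18 for Spen, -0.52 for Maml2, 0.40 for Neurl1a, 0.18 for Mib2, -0.07 for Ncstn, -0.40 for Psenen and -0.24 for Nrarp. The interaction was called for all of these named genes except Maml2 and Nrarp, with or without replicate 4, and by DESeq2 with total UMIs also not for Spen (adjusted p = 0.0908) and Psenen (adjusted p = 0.0591). Among the 49, 11 were higher and 6 lower in fRIP by edgeR, beside 18.6% and 8.07% of all genes tested, 8 and 3 by DESeq2, and 11 and 8 by edgeR without replicate 4.

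The Celsr genes work with other planar polarity proteins, among them Frizzled, Dishevelled, Prickle and Vangl. Of 14 other planar cell polarity genes 0 were enriched and 0 depleted in UV-RIP by edgeR or DESeq2, again beside 0.680% and 5.53% of all genes tested. Of the 14, 5 were higher and 3 lower at an unadjusted p below 0.05 in edgeR (8.03% and 32.6% of all genes tested), and their median was 0.03 on the log2 scale. In fRIP 4 of 14 were enriched and 0 depleted, beside 8.80% and 10.7% of all genes tested, and 2 of 14 were enriched without replicate 4. The 4 were Ror2, a Wnt5a receptor (1.18, standard error 0.09, edgeR adjusted p = 3.20e-10), Ankrd6 (0.93), the Dishevelled gene Dvl1 (0.68) and Prickle2 (0.59). In UV-RIP these had 0.04, 0.09, 0.35 and 0.14, in that order, and the interaction was called for each, with or without replicate 4. In the fit without replicate 4, Ror2 (1.04) and Ankrd6 (0.87) stayed past the fold threshold, Dvl1 (0.58) and Prickle2 (0.49) did not. Of the 6 Fat and Dchs genes, the other giant cadherins, none was called in either crosslinker, with a median of 0.25 in UV-RIP and 0.19 in fRIP on the log2 scale (0.084 in fRIP without replicate 4). By adjusted p alone 2 of the 6 rose in UV-RIP, beside 6.60% of all genes tested, Fat1 (0.44, edgeR adjusted p = 2.32e-31) and Fat2 (0.55, edgeR adjusted p = 1.16e-17), and 2 in fRIP, beside 17.6%, Fat2 (0.33, edgeR adjusted p = 0.00741) and Fat3 (0.46, edgeR adjusted p = 0.0484, but 0.247 by DESeq2 with total UMIs). Fat1 was at 0.056 in fRIP (edgeR adjusted p = 0.644) and Fat3 at -0.067 in UV-RIP (edgeR adjusted p = 0.820). The interaction was called for Fat1 alone of the 6, at -0.38 (edgeR adjusted p = 0.00178), and at -0.49 without replicate 4. These Fat genes were named after their values were seen. Fat4, Dchs1 and Dchs2 averaged between 3.44 and 7.81 UMIs.

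**Figure D5:**
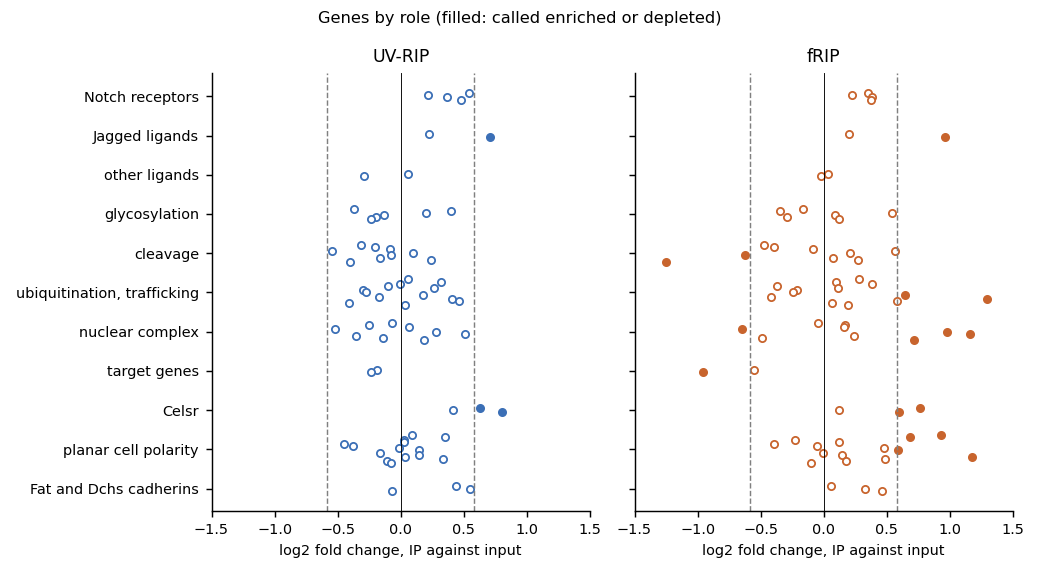
Log2 fold change of IP against input (horizontal axis) for the 9 genes and for other genes of the Notch and planar polarity lists with a mean of 10 or more UMIs, 1 circle a gene, grouped by role, in UV-RIP (left) and fRIP (right), with dashed lines at 1.5-fold in either direction. Filled circles, called enriched or depleted, are found in UV-RIP for 1 Jagged and 2 Celsr genes alone, and in fRIP also in the cleavage, ubiquitination, nuclear, target and planar polarity rows.

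For 8 of the members the gene with the most similar pattern is given, sought among 10199 other abundant genes, by Pearson correlation of log2 CPM over the 16 libraries. Piezo1, a mechanosensitive ion channel, was the closest to both Celsr1 (r = 0.983) and Notch2 (r = 0.941). Closest to Jag2 was Foxo6 (r = 0.978), to Celsr3 Pcnx3 (r = 0.968), to Notch3 Sipa1 (r = 0.975), to Notch4 Xylt2 (r = 0.962), to Jag1 the non-coding Gm11613 (r = 0.976) and to Celsr2 Sp2 (r = 0.884). The libraries are paired by plate and fall into 4 groups, and the correlations are descriptions of these libraries.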

How the data were processed

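Reads were aligned by the authors with STAR (mouse build mm10), kept where they had 1 position, and their UMIs counted per gene body with featureCounts on GENCODE vM16. The deposited values are counts, not normalised. Tool versions and the strand setting are not given in the sources used here. The quasi-likelihood test of edgeR 4.0.16 (R 4.3.3) compared IP with input for either crosslinker, the plate being a block and total UMIs the library size. The interaction was fitted over the 16 libraries, again blocked by plate, and the inputs were compared without a block. Tests were fitted on all 22936 genes with Benjamini-Hochberg adjustment. Standard errors are the size of the log2 fold change over the root of the F statistic. DESeq2 1.42.0 served for alternatives. GC and length trends were loess fits (span 0.3). CPM is UMIs per 1000000 of the library, and log2 correlations used CPM + 0.5.

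IP and input of 1 number share a lysate by the study's methods. After subtracting group means, the IP and input of a number correlated over abundant genes at 0.11 to 0.60 in fRIP and 0.03 to 0.44 in UV-RIP. The IP of fRIP replicate 4 correlated better with input 3 than with its own (0.11). The IP of UV-RIP replicate 6 correlated better with input 4 than with its own (0.03). No 2 libraries of a group agreed within sampling noise (chi-square per degree of freedom of at least 1.72). Scripts were tested on simulated data. Genes of the pathway lists were named where called in UV-RIP or fRIP with a mean of 10 or more UMIs. At most 4 were named for a list and comparison. The closest gene by pattern was named as well, and 0610009E02Rik, Gm17276, Gm26917 and Gm42418 were added for overlap or abundance. The Fat and Dchs genes, none of them called in either crosslinker, were named outside this rule. Some genes that meet this rule are not reported here. Members and lists were chosen with earlier results of these data known. Gene positions are from GENCODE vM21.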

Additional observations from a re-analysis of the deposited data

Results flagged for a closer look

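Of 54 groups of 4 values checked for the 9 genes (CPM in each group and log2 ratios on the plates), the highest or lowest value lay far from the rest in 7, where about 1 in 20 is due to chance. Input of fRIP replicate 4 was low for Notch1 (88.9 CPM) and Celsr1 (98.6 CPM). On the same plate the log2 ratio of IP to input was high for Notch3 (0.69) and Celsr2 (0.68). Notch4 was low in UV-RIP IP replicate 5 (40.2 CPM). Jag1 was high in UV-RIP input replicate 6 (57.5 CPM). The UV-RIP log2 ratio of Notch2 was high on replicate 3 (0.28).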

How the results depend on the processing

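In UV-RIP, Jag2, Celsr1 and Celsr3 passed the call under every alternative tried. Members called numbered 6 with TMM scaling and with DESeq2 median-of-ratios, 5 with the gene-length trend removed or with library sizes without Gm26917 and Gm42418, and 9 with no fold threshold. The members' median log2 fold change was then 0.66, 0.65, 0.65 and 0.63. These scalings moved the median of all genes by 0.15 to 0.17, and the members stood 0.65 above it with total UMIs and 0.66 with TMM, but 0.41 with the GC trend removed. All genes called enriched numbered 156, but 505 with TMM, 419 without those genes in the library sizes and 78 by DESeq2 with total UMIs; those depleted numbered 1268, but 425 with TMM and 505 without those genes. With median-of-ratios, GC removed, length removed and no fold threshold the enriched numbered 288, 272, 434 and 1514 and the depleted 235, 358, 426 and 6640.

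In fRIP the members' median of 0.38 was 0.22 with the GC trend removed and 0.28 to 0.41 with 1 replicate left out, and 7 members were called with no fold threshold, among 4036 genes higher and 5018 lower (2018 and 2448 with it). The sign turned for Celsr2 (-0.011 with the GC trend removed; -0.052 to 0.20 with 1 replicate left out) and Notch2 (-0.085 with the gene-length trend removed). Without the replicate block Celsr3 was at 0.58, under the fold threshold, and 2 members were called; the block changed no other call of a member.

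The difference between crosslinkers depended on the scaling. Genes higher in fRIP numbered 4264, but 2114 with median-of-ratios, 2635 with GC removed and 1456 with length removed. Genes lower numbered 1852, but 2810 with TMM, 2955 with the other library sizes, 2959 with GC removed and 1214 with no replicate block. Members called lower in fRIP were 3 with TMM, with DESeq2 median-of-ratios and with library sizes without the 2 abundant genes, 2 with the GC trend removed, 4 with the gene-length trend removed, 1 with no count filter, and 0 to 3 with 1 replicate left out. Under these first 5 settings in order of TMM, median-of-ratios, library sizes, GC and length, Notch2 was at -0.11, -0.14, -0.12, -0.10 and -0.39 and Notch3 at -0.10, -0.13, -0.12, -0.086 and -0.23. Celsr1 was at -0.016 with median-of-ratios, -0.0045 with library sizes and -0.27 with length. With 1 replicate left out, Notch2 ranged from -0.033 to 0.046, Notch3 from -0.081 to 0.053, Notch4 from -0.18 to 0.014 and Jag1 from -0.085 to 0.040.

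In the inputs, 1 member was called higher with no fold threshold, among 4634 genes higher and 3890 lower (2427 and 2165 with it), and 0 to 1 higher and 1 to 2 lower with 1 replicate left out. Without UV-RIP replicate 6 Jag1 was at -0.57, under the fold threshold. With library sizes without the 2 abundant genes Notch1, Notch2 and Celsr2 were at -0.039, -0.036 and -0.018. With 1 replicate left out Celsr3 ranged from -0.15 to 0.068, Celsr2 from -0.045 to 0.25 and Jag2 from -0.0060 to 0.24. A replicate block left 2 members lower and 0 higher. The cause of these changes was not tested.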
